A study of Mus musculus with 9 samples.

Results

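The receptors for sphingosine 1-phosphate (S1P) and lysophosphatidic acid (LPA) were followed across 3 kinds of mouse cells. The 10 genes are S1pr1 to S1pr5, which encode S1P receptors, and Lpar1, Lpar2, Lpar3, Lpar4 and Lpar6, which encode LPA receptors. They are 10 of the 56481 gene symbols in the count table, and each matched 1 annotated gene. They were selected on measured CPM values of these same 9 libraries, with no threshold stated, so their levels and fold differences are given as a description. The fit over all genes includes them, and how many passed it is given beside the share of all genes. Nothing is read from that number, nor from how it moved between settings. A further LPA receptor gene, Lpar5, is not among the 10 and is described with the other genes of the pathway.

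Each group had 3 libraries. Primary neural crest cells (pNCC) came from E13.5 embryos and were kept with 10% fetal bovine serum (FBS). Induced cells (iCEC) were neural crest cells moved to 5% knockout serum replacement in place of FBS, together with SB431542 at 5 µM, a blocker of the TGF-β type I receptor, and grew into colonies by day 12. The cells labelled primary corneal endothelium (pCEC) were kept in the same medium with FBS as pNCC. Serum carries S1P and LPA, so in comparisons with iCEC the kind of cell and the medium cannot be told apart. The labels name polyA RNA for every library except pCEC 2 and pCEC 3, which they name total RNA. No label tells whether the replicates are separate animals or cultures, so a p value here reflects only the spread among libraries, which may be technical.

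S1P and LPA are small lipids that cells release and that blood carries. Each receptor spans the membrane and passes the signal to G proteins inside the cell. S1P receptor 1 signals through Gi proteins, S1P receptors 2 and 3 also use Gq and the G12 and G13 proteins that drive contraction, and S1P receptors 4 and 5 use mainly Gi and the G12 and G13 proteins. LPA receptors 1 to 3 belong to the same sequence family as the S1P receptors, while LPA receptors 4 and 6 are closer to nucleotide receptors. In the eye, these lipids are known for effects on the migration and contraction of corneal and crest-derived cells.

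Total counts ran from 27389292 to 47967113 per library. In each library, genes with a count of 2 outnumbered genes with a count of 1, and 59.2 to 61.3% of values above 0 were even, a pattern that counting both mates of a read pair would give. A floor of 3 counts amounted to 0.0615 to 0.126 CPM (counts scaled to library size with TMM factors). The labels of iCEC and pCEC went only in part with the markers. Markers of surface epithelium summed to 12099.5 to 18773.9 CPM in iCEC and 33275.1 to 52754.8 CPM in pCEC, against 78.0 to 134 CPM in pNCC. Of these, Krt12 and Pax6 averaged 11086.7 and 895 CPM in pCEC, but 0.00829 and 0.299 CPM in iCEC. Krt5, Krt14, Trp63, Cdh1, Epcam and Esrp1 averaged higher in both groups than in pNCC. Of 10 corneal endothelium markers, 9 averaged at least 1 CPM in pCEC, 9 in pNCC and 6 in iCEC, where Col8a2, Aqp1, Cdh2 and Lmx1b stood below. Of 9 neural crest markers, 9 averaged at least 1 CPM in pNCC, 7 in iCEC and 6 in pCEC. Their sums were 376 to 577, 284 to 629 and 218 to 340 CPM in the same order. Sox9 made up most of the sum in iCEC, where it averaged 306 CPM against 35.4 CPM in pNCC, and Tfap2a was also higher there. Sox10, Foxd3, Twist1 and Ngfr averaged 0.0191, 0, 4.16 and 6.79 CPM in iCEC, against 34.3, 18.6, 99.0 and 144 CPM in pNCC. Snai2, Ets1 and Pax3 differed less between iCEC and pNCC.

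S1pr3, S1pr2 and S1pr1 were highest in pNCC. S1pr3, whose receptor couples to Gi, Gq and the G12 and G13 proteins (chromosome 13, 51408639 to 51422797, plus strand, mm10), stood at 226, 194 and 337 CPM in pNCC 1, 2 and 3. In iCEC it stood at 1.39, 2.92 and 0.0497 CPM, and in pCEC at 0.0599, 0.0611 and 0 CPM, from 2, 2 and 0 counts. The pNCC libraries lay far above all others, and iCEC 3 was as low as the pCEC libraries. The mean in pNCC was 253 ± 75.0 CPM (SD, n = 3). By the fit, pNCC was 170-fold above iCEC, and 5340-fold above pCEC, where the fold rests on 4 counts in all. Without iCEC 2 the log2 fold change of iCEC against pNCC was -8.38, against -7.41 with all libraries. Gm32834, on the opposite strand, shares 45 exon bases with S1pr3. It had 7, 3 and 0 counts in pNCC and 0 in every iCEC and pCEC library.

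S1pr2, for a receptor known for signalling through G12 and G13 (chromosome 9, 20962361 to 20976781, minus strand), stood at 85.6, 83.0 and 93.7 CPM in pNCC. It stood at 15.5, 12.0 and 12.6 CPM in iCEC and at 3.53, 8.31 and 7.97 CPM in pCEC. The 3 groups did not overlap and fell in the order pNCC, iCEC, pCEC. S1pr2 was 6.41-fold lower in iCEC and 13.6-fold lower in pCEC than in pNCC, and 2.12-fold higher in iCEC than in pCEC.

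S1pr1, for the Gi-coupled receptor best known from blood vessel endothelium and lymphocytes (chromosome 3, 115710433 to 115715072, minus strand), stood at 24.4, 18.6 and 18.1 CPM in pNCC. In iCEC it stood at 4.82 and 4.53 CPM in iCEC 1 and 2 and at 0.0994 CPM in iCEC 3. In pCEC it stood at 0.120, 0.550 and 0.252 CPM. All pNCC libraries lay above all others, iCEC 1 and 2 lay between, and iCEC 3 lay with pCEC. S1pr1 was 66.4-fold lower in pCEC than in pNCC (log2 fold change -6.05, or -6.80 without pCEC 2). Against pNCC it was 6.32-fold lower in iCEC (log2 fold change -2.66, or -2.12 without iCEC 3).

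Markers of blood vessel endothelium varied by gene. Cdh5, their main junction cadherin, had the same order of means as S1pr1, at 10.3 ± 1.14, 2.15 ± 3.38 and 0.485 ± 0.402 CPM in pNCC, iCEC and pCEC (SD, n = 3), and Tek and Emcn were also highest in pNCC. Erg and Kdr were highest in pCEC, at 22.9 ± 12.9 and 10.3 ± 7.36 CPM, and made up most of the sum there. The summed level of the 9 was 19.4 to 24.8 CPM in pNCC, 1.19 to 7.11 CPM in iCEC and 20.9 to 59.6 CPM in pCEC. In pNCC 5 of the 9 averaged at least 1 CPM, in iCEC 2 and in pCEC 5, and Emcn and Cldn5 were at 0 in every iCEC library. Their part in the level of S1pr1 was not tested. In bulk libraries, fewer cells of a type and less RNA per cell cannot be told apart.

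S1pr5 and S1pr4 had the opposite order. S1pr5, for a receptor best known from oligodendrocytes and natural killer cells (chromosome 9, 21242912 to 21248443, minus strand), stood at 53.1, 70.9 and 71.6 CPM in pCEC. In iCEC it stood at 1.15, 1.58 and 0.994 CPM. In pNCC it had 2, 0 and 0 counts. The pCEC libraries lay above all others, and each iCEC library lay above every pNCC library. Summed counts, scaled to TMM library sizes, had a ratio of 3362.3 for pCEC against pNCC (95% counting interval 930 to 27770.1). For iCEC against pNCC the scaled ratio was 63.6 (17.3 to 530). If both mates were counted, the intervals widen to 603 to 132825.6 and 11.0 to 2526.7. These intervals cover counting error only and not the spread among libraries. As S1pr5 was selected on these values, they are no support for a difference. Between pCEC and iCEC the fold was 50.5. Without pNCC 1, the library with the 2 counts, the log2 fold changes against pNCC were 14.01 in pCEC (11.44 with all libraries) and 8.60 in iCEC (5.81), both of which then rest on a group at 0. Gm48303, on the opposite strand, shares 51 exon bases with S1pr5. It had 45, 9 and 5 counts in pCEC, 0, 1 and 0 in iCEC and 0 in every pNCC library. The library kit named in the labels does not mark strand, so reads of the shared bases cannot be assigned to either gene.

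S1pr4, for a receptor known from lymphoid and myeloid cells (chromosome 10, 81497747 to 81500132, minus strand), was at 0 in every pNCC library. It stood at 0.635, 1.43 and 0.249 CPM in iCEC and at 1.77, 4.37 and 3.35 CPM in pCEC. Every pCEC library lay above every iCEC library. Against a floor of 3 counts in each pNCC library, S1pr4 was at least 8.94-fold higher in iCEC and at least 36.6-fold higher in pCEC.

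Leukocyte markers varied by gene where S1pr4 was seen. Their summed level was 20.5 to 29.5 CPM in pNCC, 15.3 to 56.1 CPM in iCEC and 21.5 to 46.0 CPM in pCEC, so that the groups overlapped. Of the 8 markers, 3 averaged at least 1 CPM in pNCC, 2 in iCEC and 4 in pCEC. In iCEC the pan-leukocyte gene Ptprc and Adgre1, Cd3e and Lyz2 were at 0 in every library. Most of the sum in iCEC 1 and 2 was Cd68, at 30.4 and 54.6 CPM, and in iCEC 3 Csf1r, at 13.0 CPM. In pCEC, Ptprc stood at 0.239, 1.34 and 1.26 CPM, and Cd68, Lyz2 and Csf1r averaged 19.4, 8.31 and 4.0 CPM. Ptprc, Adgre1, Csf1r and Lyz2 were lowest in pCEC 1, as S1pr4 was, while Cd68, Aif1 and Cd3e were not. In that group only pCEC 1 is labelled polyA RNA, so cell content and kind of RNA cannot be told apart there. The part of these markers in the level of S1pr4 was not tested.

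Markers of Schwann cells and glia summed to 51.6 to 106 CPM in pNCC, 121 to 237 CPM in iCEC and 444 to 524 CPM in pCEC, in the same order as S1pr5. In pCEC 3 of the 6 averaged at least 1 CPM, and Mbp and Erbb3, which other cells also express, made up nearly all of the sum. The glial marker S100b stood at 0.108 ± 0.0629 CPM in pCEC (SD, n = 3).

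**Figure D1:**
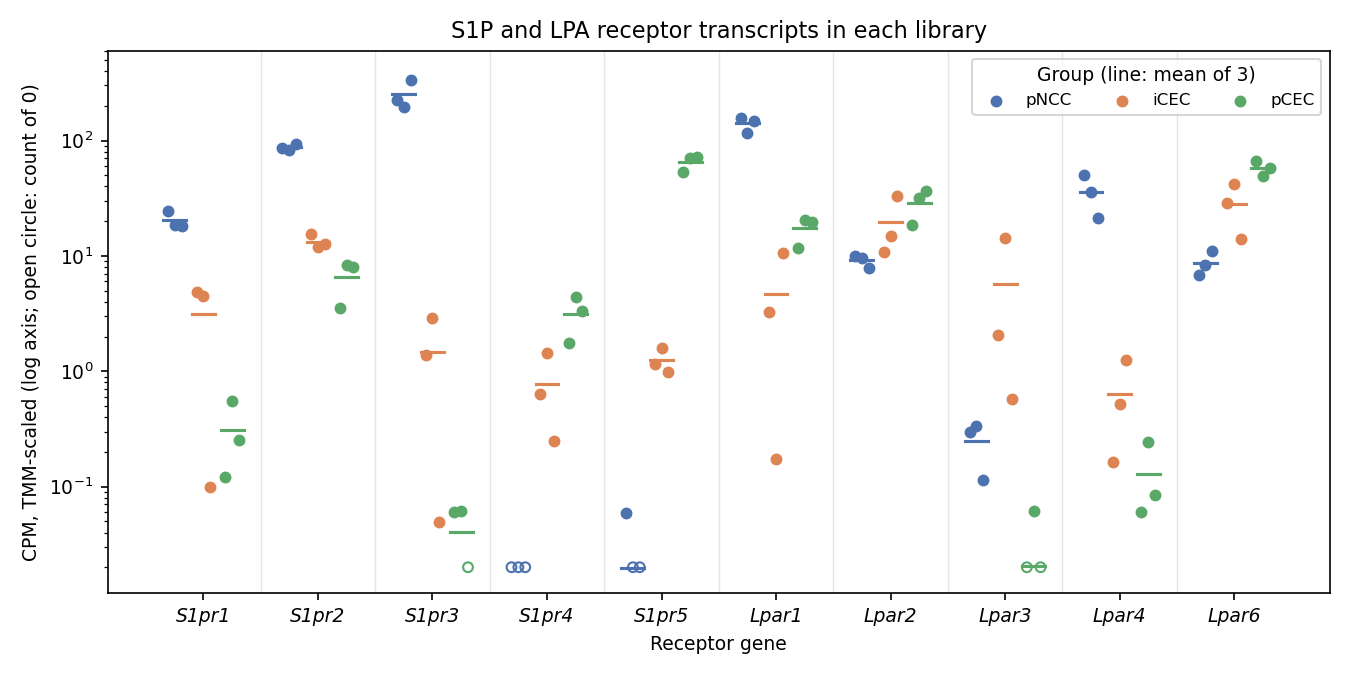
CPM of each receptor gene in each library on a log axis, with 3 points per group and a line at the group mean. Open circles stand for a count of 0 and are drawn at a fixed height. S1pr1, S1pr2, S1pr3, Lpar1 and Lpar4 are highest in all 3 pNCC libraries, while S1pr4, S1pr5 and Lpar6 are highest in all 3 pCEC libraries.

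The promoters of the S1P receptor genes with opposite orders are shown because one pair was highest in pNCC and the other in pCEC. The windows hold the 250 bases before the RefSeq start of the gene in GRCm38.p6, on the gene's strand, with each CG dinucleotide in capitals. S1pr3 (chr13:51408368-51408617, plus strand) and S1pr2 (chr9:20976794-20977043, minus strand) were highest in pNCC, and S1pr5 (chr9:21248444-21248693, minus strand) and S1pr4 (chr10:81500138-81500387, minus strand) in pCEC.
S1pr3: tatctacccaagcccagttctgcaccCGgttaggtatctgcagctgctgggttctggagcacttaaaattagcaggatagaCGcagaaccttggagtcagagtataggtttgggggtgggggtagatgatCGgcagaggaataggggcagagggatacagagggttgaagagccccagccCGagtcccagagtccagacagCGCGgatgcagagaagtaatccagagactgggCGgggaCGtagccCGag
S1pr2: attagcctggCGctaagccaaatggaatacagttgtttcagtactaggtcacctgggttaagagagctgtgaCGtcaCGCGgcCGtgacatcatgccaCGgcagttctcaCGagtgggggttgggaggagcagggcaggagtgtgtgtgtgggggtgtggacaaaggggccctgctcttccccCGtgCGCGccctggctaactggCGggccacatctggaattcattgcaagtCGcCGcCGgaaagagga
S1pr5: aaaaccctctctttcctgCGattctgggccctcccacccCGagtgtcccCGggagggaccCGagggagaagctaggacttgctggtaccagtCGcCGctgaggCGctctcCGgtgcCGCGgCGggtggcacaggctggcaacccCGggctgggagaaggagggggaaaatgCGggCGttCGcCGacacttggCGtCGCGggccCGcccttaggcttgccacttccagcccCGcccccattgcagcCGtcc
S1pr4: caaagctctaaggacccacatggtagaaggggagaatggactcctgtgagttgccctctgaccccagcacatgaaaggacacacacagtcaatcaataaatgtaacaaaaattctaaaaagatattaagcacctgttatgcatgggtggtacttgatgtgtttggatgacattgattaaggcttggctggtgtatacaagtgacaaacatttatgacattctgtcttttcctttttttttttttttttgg

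The pair that was highest in pCEC had very different windows. S1pr5 held 22 CG dinucleotides and a G and C content of 69.2%, while S1pr4 held 0 and 38.8%. The windows of S1pr3 and S1pr2 lay between, with 9 and 14 CG dinucleotides and 56.4% and 59.2%. The median over 32851 windows of RefSeq genes was 6 CG dinucleotides and 52.4%. The GC box GGGCGG, read on both strands with overlaps counted, had 2 matches in S1pr5, 1 in S1pr3 and 0 in S1pr2 and S1pr4, and 32.7% of all windows held it. The E-box CACCTG, a sequence that Zeb and Snail factors can bind, had 1 match each in S1pr2 and S1pr4, and 17.2% of all windows held it. Neither motif separated the pairs, and a match is a description of these letters only.

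Among LPA receptor genes, Lpar1 and Lpar4 were highest in pNCC. Lpar1, for the most widely expressed LPA receptor (chromosome 4, 58435255 to 58553898, minus strand), stood at 157, 116 and 149 CPM in pNCC. In iCEC it stood at 3.24, 0.172 and 10.5 CPM, and in pCEC at 11.7, 20.6 and 19.7 CPM. The groups did not overlap, and the iCEC libraries spread over more than an order of magnitude. Lpar1 was 29.6-fold lower in iCEC and 8.33-fold lower in pCEC than in pNCC. The log2 fold change in iCEC was -4.89, or -6.31 without iCEC 3. Between iCEC and pCEC it was -1.78, and -3.25 without iCEC 3. Mir3095 and Gm12577 overlap the span of Lpar1 on the same strand and share 0 exon bases with it.

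Inside a group, some fibroblast and keratocyte genes were highest or lowest in the same library as Lpar1. In iCEC the matrix proteoglycan Dcn stood at 2.46, 4.13 and 122 CPM, highest in iCEC 3 as Lpar1 was. Dcn was lowest in iCEC 1 and Lpar1 in iCEC 2. The other 5 markers were not highest there: Aldh3a1 stood at 116, 144 and 36.2 CPM, Pdgfra, Thy1 and Lum at or below 1.35 CPM, and Kera at 0 in every iCEC library. In pCEC the stromal proteoglycan Kera stood at 55.0, 513 and 415 CPM, lowest in pCEC 1 as Lpar1 and S1pr2 were. Only pCEC 1 is labelled polyA RNA in that group, so kind of RNA and cell content cannot be told apart there. The 6 keratocyte and fibroblast markers summed to 2414.4 to 3345.4 CPM in pNCC, 121 to 158 CPM in iCEC and 22484.3 to 31210.4 CPM in pCEC, with 5, 2 and 5 of them averaging at least 1 CPM. Most of the pCEC sum was Aldh3a1, which the mouse corneal epithelium also expresses. Their part in the levels of Lpar1 was not tested.

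Lpar4, for a receptor of the nucleotide receptor branch (chromosome X, 106920625 to 106933900, plus strand), stood at 50.3, 35.9 and 21.4 CPM in pNCC. It stood at 0.164, 0.516 and 1.24 CPM in iCEC and at 0.0599, 0.244 and 0.0839 CPM in pCEC. Every pNCC library lay far above the rest, and iCEC and pCEC overlapped. Lpar4 was 54.7-fold lower in iCEC (log2 fold change -5.77, or -6.76 without iCEC 3) and 267-fold lower in pCEC (-8.06, or -8.91 without pCEC 2), where it had 12 counts in all.

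Lpar6 and Lpar2 were higher in the other groups. Lpar6, for a receptor whose loss in people is known to cause sparse woolly hair (chromosome 14, 73237895 to 73243294, plus strand), stood at 66.3, 49.0 and 57.5 CPM in pCEC. It stood at 28.9, 41.9 and 14.0 CPM in iCEC and at 6.77, 8.26 and 11.0 CPM in pNCC. The groups did not overlap. Lpar6 was 6.52-fold higher in pCEC and 3.33-fold higher in iCEC than in pNCC. The log2 fold change in iCEC was 1.74, and 1.34 to 2.03 when 1 library was left out.

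Lpar6 lies inside Rb1, the retinoblastoma gene, on the opposite strand, and 408 of its 5400 exon bases are also exon of Rb1. The library kit named in the labels does not mark strand, so reads of the shared bases cannot be assigned to either gene. Rb1 stood at 20.9 ± 2.26 CPM in pNCC, 36.8 ± 4.29 CPM in iCEC and 52.3 ± 1.89 CPM in pCEC (SD, n = 3), in the same order as Lpar6. Among iCEC libraries the orders differed, with Rb1 highest (40.6 CPM) and Lpar6 lowest in iCEC 3.

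Lpar2, for an LPA receptor common in epithelia and leukocytes (chromosome 8, 69822429 to 69831102, plus strand), stood at 18.5, 31.6 and 36.7 CPM in pCEC, 10.9, 15.0 and 33.2 CPM in iCEC and 10.0, 9.61 and 7.86 CPM in pNCC. Each pCEC and iCEC library lay above each pNCC library, and iCEC and pCEC overlapped. It was 3.08-fold higher in pCEC than in pNCC. In iCEC it was 2.20-fold higher than in pNCC (log2 fold change 1.14, or 0.50 without iCEC 3). Between iCEC and pCEC the log2 fold change was -0.46, or -1.09 without iCEC 3.

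Lpar3, for a receptor known from the uterus (chromosome 3, 146220963 to 146286186, plus strand), was highest in iCEC. It stood at 2.07, 14.4 and 0.572 CPM there, at 0.297, 0.337 and 0.114 CPM in pNCC, and had 0, 2 and 0 counts in pCEC. The 3 groups did not overlap, but iCEC 2 held most of the counts. Against pNCC Lpar3 was 23.1-fold higher in iCEC, at a log2 fold change of 4.53, or 2.43 without iCEC 2. Scaled to TMM library sizes, the ratio of summed counts of iCEC to pCEC was 228. Its 95% counting interval was 62.9 to 1887.8, or 40.6 to 9038.5 if both mates were counted. The interval leaves out the spread among libraries, where iCEC had 101, 504 and 23 counts, and is no support for a difference. The fitted log2 fold change of 7.83 was 5.81 without iCEC 2 and 10.65 without pCEC 2, the library with all the pCEC counts.

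A gene counted as past the threshold when its adjusted p from edgeR, over all genes tested in that comparison, was below 0.05. Between iCEC and pNCC all 10 receptor genes were tested and 8 passed, where 31.3% of all 16293 genes did. Of the 8, 4 were higher in iCEC, as were 16.1% of all genes, and 4 were lower, as were 15.1%. All 10 had groups that did not overlap, as had 51.9% of all genes. The count was 4 without pNCC 1, pNCC 2, pNCC 3 or iCEC 1. Between pCEC and pNCC 9 receptor genes were tested, all but Lpar3, and 9 passed, where 62.5% of all 16608 genes did. Of the 9, 4 were higher in pCEC, as were 30.3% of all genes, and 5 were lower, as were 32.2%. None of the 9 had overlapping groups, and 70.9% of all genes had none.

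Between iCEC and pCEC 8 receptor genes were tested, without S1pr3 and Lpar4. S1pr5, lower in iCEC, and Lpar3, higher in iCEC, passed, where 20.4% of all 16278 genes did (9.92% lower and 10.5% higher). Of the 8, 6 had groups that did not overlap, as had 43.8% of all genes. The count was 5 without iCEC 3 and 1 without pCEC 1, pCEC 2 or pCEC 3. Since the genes were selected on these values, the counts are no support for a difference. Both comparisons with pNCC share the same 3 pNCC libraries. The median log2 fold change of the tested receptor genes was -0.76 in iCEC and -3.06 in pCEC against pNCC, beside 0.05 and -0.01 over all genes tested. These genes went both ways and were selected on these values, so the medians are no support for a difference either.

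Levels of different genes were compared as CPM per kilobase of exon. In pNCC, S1pr3 led with 56.6 ± 16.8 (SD, n = 3), followed by Lpar1 with 32.9 ± 5.03, with ranges that did not overlap. S1pr2, Lpar4 and S1pr1 came next at 11.0 ± 0.699, 8.46 ± 3.40 and 6.68 ± 1.15, and neighbours among them overlapped. Lpar6 and Lpar2, at 1.61 and 1.57, overlapped too, and Lpar3, S1pr5 and S1pr4 were last at 0.101, 0.00791 and 0.

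In pCEC the order of the 10 by level per kilobase was led by S1pr5 at 26.1 ± 4.19 and Lpar6 at 10.7 ± 1.60, with ranges apart. Lpar5, outside the 10, stood at 26.4 ± 1.47 in pCEC and 5.59 ± 0.862 in iCEC, with ranges that overlapped those of S1pr5 in pCEC and Lpar6 in iCEC. Lpar2 at 4.95 ± 1.61 and Lpar1 at 4.04 ± 1.15 overlapped, as did S1pr4 at 1.33 and S1pr2 at 0.828. S1pr1, Lpar4, S1pr3 and Lpar3 stood at or below 0.101. In iCEC every neighbour in the order of the 10 overlapped with the next, from Lpar6 at 5.23 ± 2.59 through Lpar2 at 3.37 ± 2.03, Lpar3 at 2.31 ± 3.09 and S1pr2 at 1.67 ± 0.233 down to Lpar4 at 0.151 ± 0.130.

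Summed over the 10 genes, the level per kilobase was 121, 98.9 and 137 in pNCC, 13.4, 21.2 and 13.4 in iCEC and 40.7, 50.8 and 52.7 in pCEC. The groups did not overlap, and iCEC was lowest. Within the 10, S1P receptor genes made up 62.1 ± 5.56% of the sum in pNCC, 24.3 ± 9.13% in iCEC and 58.8 ± 3.29% in pCEC (SD, n = 3). With Lpar5 added to the sum, an alternative chosen after its level was seen, the share was 62.1 ± 5.55%, 17.6 ± 5.64% and 37.9 ± 3.45%, so that LPA receptor genes then made up the larger part in pCEC. In pNCC the share of S1P receptor genes within the 10 was mostly S1pr3, at 47.1 ± 7.22% of the sum, and in pCEC mostly S1pr5, at 54.2 ± 1.79%. Lpar1 made up 27.7 ± 2.36% of the sum in pNCC, and Lpar6 22.8 ± 6.55% in pCEC and 31.9 ± 11.0% in iCEC. In iCEC 3 Lpar2 made up 42.5% of the sum, against 13.9% and 12.1% in iCEC 1 and 2, and in iCEC 2 Lpar3 made up 27.6%, against 6.27% and 1.73% in iCEC 1 and 3.

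**Figure D2:**
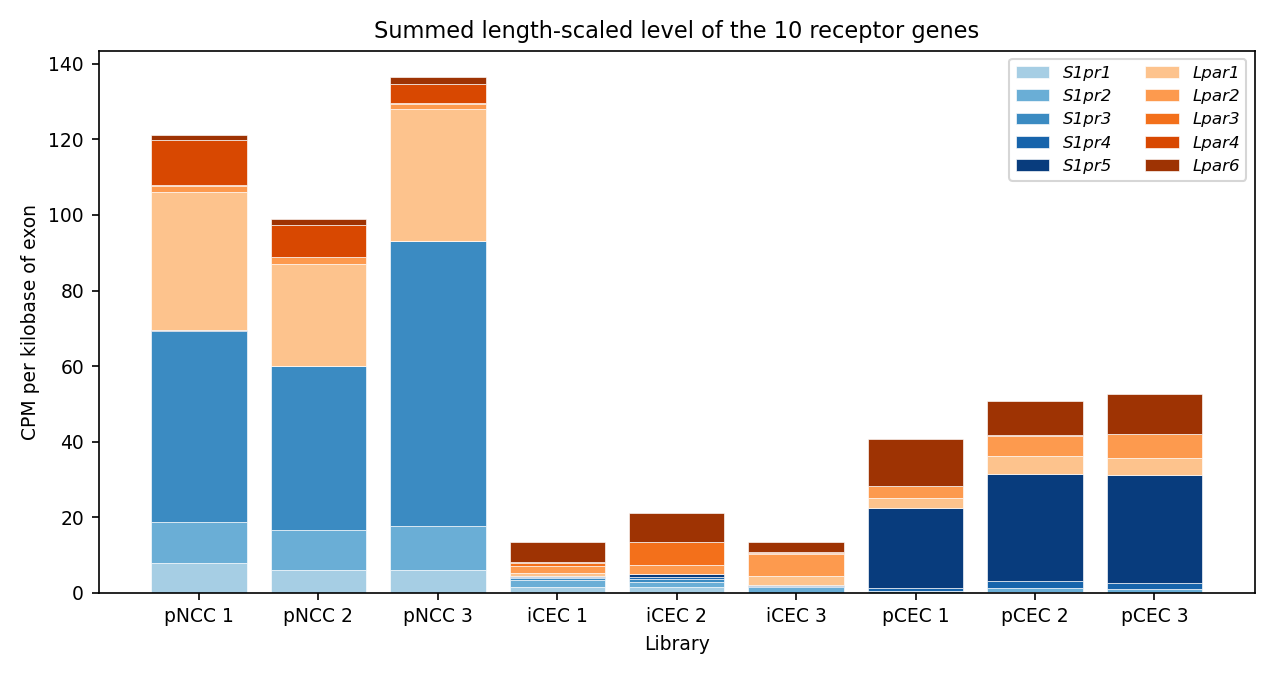
Stacked bars of CPM per kilobase of exon for the 10 receptor genes in each of the 9 libraries, with S1P receptor genes in blue and LPA receptor genes in orange. S1pr3 and Lpar1 fill most of the pNCC bars, S1pr5 and Lpar6 most of the pCEC bars, and the iCEC bars are the shortest.

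Genes with the most similar pattern over the 9 libraries were named by Pearson correlation of log2 CPM with 11102 genes of at least 10 CPM in 1 group. The libraries fall into 3 groups, so that many genes score high, and the values are a description. For S1pr3 they were Ppm1f, Ankrd27 and Tbx15 (r = 0.9942, 0.9926 and 0.9925), and 653 genes had r over 0.9. For S1pr5 they were Elmod3, Fjx1 and Ubl3 (0.9954, 0.9932 and 0.9919), with 963 genes over 0.9. For Lpar1 they were Farp2, Myh10 and Pmp22 (0.9989, 0.9808 and 0.9757), with 112 genes over 0.9. Lpar2 and Lpar3 had the fewest close matches, with 81 and 88 genes over 0.9, led by Dis3l2 (0.9672) and by the arrestin gene Arrb2 (0.9816).

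Other genes of the pathway were taken from 7 lists by role, and 51 of them were in the table. The LPA receptor gene Lpar5 stood at 39.0, 42.6 and 38.5 CPM in pCEC, 9.94, 8.05 and 7.43 CPM in iCEC and 0.0593, 0 and 0.114 CPM in pNCC. The groups did not overlap. Lpar5 was 640-fold higher in pCEC (edgeR adjusted p = 4.18e-06) and 142-fold higher in iCEC (edgeR adjusted p = 0.00303) than in pNCC, folds that rest on 6 counts in pNCC. Their log2 values of 9.32 and 7.15 were 8.73 and 6.56 without pNCC 2 and 10.22 and 8.05 without pNCC 3. It was 4.52-fold lower in iCEC than in pCEC (edgeR adjusted p = 0.00228). P2ry10b, of a family of lysophosphatidylserine receptors, went the other way, from 7.73 ± 3.51 CPM in pNCC to 0.126 ± 0.116 CPM in iCEC and 2 counts in pCEC. Its call in iCEC (edgeR adjusted p = 0.013) was lost without pNCC 1 (0.0588) or pNCC 2 (0.0615), and its log2 fold change of -5.92 was -5.30 without iCEC 1 and -6.67 without iCEC 2.

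Of 10 genes that supply S1P 8 were tested, and 4 were higher and 1 lower in iCEC, 5 higher and 3 lower in pCEC, each against pNCC. That is 62.5% and 100% of the 8, beside 31.3% and 62.5% of all genes. Spns2, the transporter that exports S1P, stood at 1.87, 2.08 and 0.572 CPM in pNCC, 255, 386 and 361 CPM in iCEC and 323, 145 and 226 CPM in pCEC. It was 226-fold higher in iCEC (edgeR adjusted p = 0.000788) and 152-fold higher in pCEC (edgeR adjusted p = 5.66e-05). The sphingosine kinase gene Sphk2 was 2.11-fold higher in iCEC (edgeR adjusted p = 0.00571) and 4.17-fold higher in pCEC (edgeR adjusted p = 7.91e-06). Ceramidases, which free sphingosine, went both ways. Acer3 was 5.27- and 9.98-fold higher and Acer2 7.84- and 9.64-fold higher in iCEC and pCEC, while the lysosomal ceramidase Asah1 was 2.94- and 4.81-fold lower.

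Sphk1, the other sphingosine kinase, stood at 23.7, 6.39 and 69.0 CPM in iCEC and 24.8 ± 6.23 CPM in pNCC. In pCEC it was 1.70-fold lower than in pNCC (edgeR adjusted p = 0.0431), a call lost without pNCC 1 (0.0689), pNCC 2 (0.145), pCEC 1 (0.107) or pCEC 2 (0.0966). The lowering of Asah2 in pCEC (1.44-fold, edgeR adjusted p = 0.0321) was lost without any 1 library other than pNCC 2 (0.0589 to 0.109).

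Enzymes that break down S1P and LPA divided by gene. Of 6 genes 5 were tested, and 1 was higher and 2 lower in iCEC (60% beside 31.3% of all genes), 2 higher and 3 lower in pCEC (100% beside 62.5%). The S1P lyase gene Sgpl1, which degrades S1P irreversibly, was 2.15-fold lower in pCEC (edgeR adjusted p = 0.000127) and 1.75-fold lower in iCEC (edgeR adjusted p = 0.0266), a call in iCEC that was lost without iCEC 1 (0.0599) or any 1 of the pNCC libraries (0.0839 to 0.0985). Of the lipid phosphatases of the cell surface, Plpp2 was 4.28- and 5.74-fold higher in iCEC and pCEC, while Plpp1 was 3.94- and 3.90-fold lower. The call of Plpp1 in iCEC (edgeR adjusted p = 0.0329) was lost without iCEC 1 (0.0797) or any 1 of the pNCC libraries (0.081 to 0.107). Plpp3 was 4.92-fold lower in pCEC, and in iCEC it stood at 50.6 ± 35.9 CPM against 228 ± 58.1 CPM (edgeR adjusted p = 0.0536). The phosphatase gene Sgpp2 was not tested and stood at 19.6 CPM in iCEC 1 and at or below 0.148 CPM in every other library.

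Of 5 genes listed under LPA metabolism, 2 were higher in iCEC, and 2 were higher and 3 lower in pCEC, each against pNCC. That is 40% and 100%, beside 31.3% and 62.5% of all genes. Pla1a was 1 of the 2 higher in iCEC, and whether its product makes LPA in these cells was not tested. Acp6, an LPA phosphatase of mitochondria, stood at 38.7 ± 2.40 CPM in iCEC, 30.9 ± 1.16 CPM in pCEC and 16.7 ± 0.518 CPM in pNCC (SD, n = 3). It was 2.36-fold higher in iCEC (edgeR adjusted p = 0.00293) and 1.81-fold higher in pCEC (edgeR adjusted p = 0.000513), and both calls held whichever library was left out. Agk, a lipid kinase that can make LPA, was 1.84-fold lower in pCEC (edgeR adjusted p = 0.00338). Its log2 fold change of -0.88 was -0.71 with pCEC as its polyA library alone. Enpp2 encodes autotaxin, the secreted enzyme that makes most LPA outside cells, and stood at 16.1, 6.04 and 5.09 CPM in pNCC, 8.11, 22.7 and 6.94 CPM in iCEC and 0.539, 1.65 and 1.47 CPM in pCEC. It was 7.67-fold lower in pCEC than in pNCC (edgeR adjusted p = 0.00429), at a log2 fold change of -2.94, or -2.24 without pNCC 1. It was 10.6-fold higher in iCEC than in pCEC (edgeR adjusted p = 0.0175), a call lost without pCEC 1 (0.061), pCEC 2 (0.0642) or pCEC 3 (0.0722). That log2 fold change of 3.41 was 2.75 without iCEC 2.

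The phospholipase genes Liph and Pla1a had different orders. Liph, which makes the LPA that Lpar6 is known to sense in hair follicles, stood at 111, 67.4 and 77.4 CPM in pCEC and 0.418 ± 0.211 CPM in pNCC, a 198-fold difference (edgeR adjusted p = 1.12e-05). In iCEC it stood at 33.4, 59.7 and 0.0497 CPM, so that iCEC 3 lay below every pNCC library, and it did not pass against pNCC (edgeR adjusted p = 0.0574). Pla1a, a secreted phospholipase, stood at 20.1, 45.6 and 9.74 CPM in iCEC, 4.59 ± 1.05 CPM in pNCC and 0, 0 and 0.168 CPM in pCEC. It was 506-fold higher in iCEC than in pCEC (edgeR adjusted p = 0.00751), where the log2 fold change of 8.98 ran from 8.28 to 12.89 when 1 library was left out. Without iCEC 2, pCEC 1 or pCEC 2 it was 8.28, 8.35 or 8.33, and without pCEC 3, which held all the pCEC counts, 12.89. Its call against pNCC in iCEC (5.60-fold, edgeR adjusted p = 0.0236) was lost without any 1 of the pNCC libraries (0.0727 to 0.103), and its log2 fold change of 2.49 was 1.73 without iCEC 2. In pCEC it was lower than in pNCC (log2 fold change -6.54), at -5.88 without pCEC 1, -5.89 without pCEC 2 and -10.29 without pCEC 3.

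Among G protein subunits, Gna12, which couples receptors to contraction, was 2.75-fold lower in iCEC (edgeR adjusted p = 0.00527) and 3.61-fold lower in pCEC (edgeR adjusted p = 5.85e-05) than in pNCC. Gnai1, a Gi subunit, differed between all 3 groups. It stood at 23.9 ± 6.79 CPM in pNCC (SD, n = 3), 83.2, 64.3 and 453 CPM in iCEC and 0.0599, 0.244 and 0.335 CPM in pCEC. It was 118-fold lower in pCEC than in pNCC (edgeR adjusted p = 2.35e-05). Against pCEC it was 1040-fold higher in iCEC (edgeR adjusted p = 0.00563), at a log2 fold change of 10.02, or 8.54 without iCEC 3. The call of iCEC against pNCC (8.57-fold, edgeR adjusted p = 0.0339) was lost without any 1 of the pNCC libraries (0.0964 to 0.128), and its log2 fold change of 3.10 was 1.63 without iCEC 3. Gnai2, another Gi subunit, stood at 585 ± 39.9 CPM in pNCC and 334 ± 52.8 CPM in pCEC, where it was 1.79-fold lower (edgeR adjusted p = 0.00177), a call lost with all 9 libraries in one fit (0.0512). Gna11, which couples like Gnaq, was 1.42-fold lower in pCEC (edgeR adjusted p = 0.00535). Gnaq was 1.68-fold higher in iCEC than in pNCC (edgeR adjusted p = 0.0232), a call lost without any 1 of the pNCC libraries (0.0896 to 0.12). Of 7 subunits, 2 were higher and 1 lower in iCEC (42.9% beside 31.3% of all genes), and 5 were lower in pCEC (71.4% beside 62.5%).

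The contraction branch after Gna12 and Gna13 had 8 genes, and 1 of them passed in iCEC (12.5% beside 31.3% of all genes). This was the kinase gene Rock2 (1.53-fold lower than in pNCC, edgeR adjusted p = 0.0357), and that call was lost without any 1 library other than iCEC 3 (0.0712 to 0.135). In pCEC 3 were higher and 2 lower (62.5%, as over all genes). Rhoc was 12.5-fold lower there (edgeR adjusted p = 3.48e-06), at 18.8 ± 3.35 CPM against 230 ± 19.4 CPM, while Rhob and the exchange factor gene Arhgef12 were 1.97- and 1.99-fold higher. Rock1, a kinase of the same branch, fell by 0.58 on the log2 scale in pCEC (edgeR adjusted p = 0.0141), a call lost with all 9 libraries in one fit (0.0556). With pCEC as its polyA library alone, the log2 fold change of Rock1 was -0.33. Rhoa itself stood at 398 ± 58.3 CPM in pCEC, 293 ± 110 CPM in iCEC and 390 ± 24.8 CPM in pNCC.

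Of 10 regulators that switch receptors off, 5 were lower and 2 higher in pCEC, and 2 were lower and 1 higher in iCEC, each against pNCC. That is 70% and 30%, beside 62.5% and 31.3% of all genes. The receptor kinase gene Grk5 was 7.80-fold lower (edgeR adjusted p = 3.16e-06), and the RGS genes Rgs4 and Rgs16, whose products speed the shut-off of Gi and Gq, were 101- and 49.3-fold lower. The log2 fold change of Rgs4 (-6.66) was -6.00 without pCEC 1 and -10.79 without pCEC 2, and that of Rgs16 (-5.62) was -5.01 and -6.63. The arrestin gene Arrb1 was 3.23-fold higher (edgeR adjusted p = 0.000253). In iCEC, Rgs2 was 24.3-fold lower than in pNCC (edgeR adjusted p = 0.00829), at a log2 fold change of -4.60, or -5.55 without iCEC 2. The calls of Grk5 (4.33-fold lower, edgeR adjusted p = 0.0275) and Arrb1 (3.39-fold higher, 0.0292) in iCEC were lost without any 1 of the pNCC libraries (0.0778 to 0.118). That of Grk5 was also lost without iCEC 1 or 2 (0.0592 and 0.0682) and that of Arrb1 without iCEC 2 (0.0714), and the log2 fold change of Grk5 (-2.11) was -2.97 without iCEC 3.

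Over the 7 lists, 19 of 45 tested genes passed in iCEC against pNCC, 11 higher and 8 lower, which is 42.2% beside 31.3% of all genes. The count was 10 without pNCC 1, 10 without pNCC 2 and 11 without pNCC 3. In pCEC 37 of 45 passed, 15 higher and 22 lower, which is 82.2% beside 62.5% of all genes. Of the 37, 32 held whichever library was left out, and 30 were kept with all 9 libraries in 1 fit. Between iCEC and pCEC 11 of 42 passed, 6 higher and 5 lower in iCEC, which is 26.2% beside 20.4% of all genes. That count was 4 without pCEC 1 and 3 without pCEC 2 or pCEC 3, and the 3 genes that held were Lpar5, Pla1a and Gnai1. With pCEC as its polyA library alone their log2 fold changes were -2.15, 12.93 and 11.75, in a setting where 0 of 18806 genes passed. The other 8 were Enpp2, Gnaq, Rhoc and Arrb2, higher in iCEC, and Sphk2, Rgs2, Rhob and Arhgef11, lower in iCEC, and each was lost without at least 1 of the pCEC libraries. Median log2 fold changes over the lists were -0.26, -0.51 and 0.09 in the 3 comparisons, beside 0.05, -0.01 and 0.04 over all genes.

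**Figure D3:**
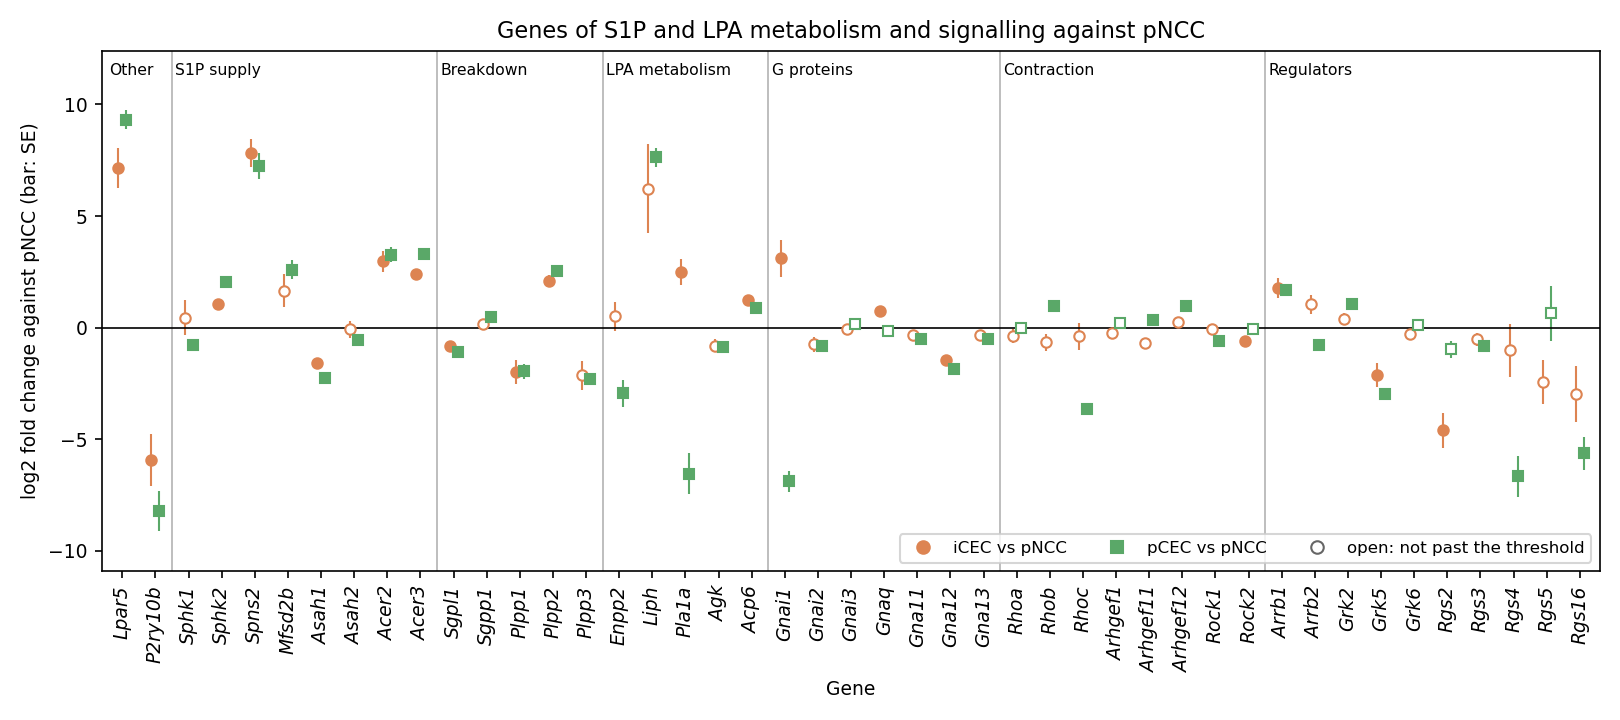
Log2 fold change against pNCC for the tested genes of the 7 lists, with iCEC as circles, pCEC as squares and bars for the SE. Filled symbols passed the edgeR threshold, and Lpar5 and Spns2 are far above 0 in both groups, while Gnai1 and Pla1a lie above 0 in iCEC and below 0 in pCEC.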

How the data were processed

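RNA was measured in 9 libraries with paired reads of 150 bases. The authors deposited 1 table of unnormalized counts by gene symbol. The submitters' processing notes list edgeR and the build mm10. The aligner, counting tool and annotation are not given in the sources used here. Groups and replicate numbers came from the sample titles. Positions and exon lengths came from GENCODE M21, and promoters from RefSeq (GRCm38.p6).

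Each comparison used the 6 libraries of its groups in R 4.3.3 with edgeR 4.0.16. It applied filterByExpr, TMM scaling and a robust quasi-likelihood fit with a 2-sided test and Benjamini-Hochberg adjustment over every gene that passed the filter (threshold 0.05). TMM factors ran from 0.871 to 1.197. The SE was taken from the F statistic, as the size of the log2 fold change over the root of F. CPM used TMM-scaled library sizes over 9 libraries, and length scaling used all exon bases joined. Levels are the mean ± SD over 3 libraries. Bounds use 3 counts in each library, and intervals are exact binomial (Clopper-Pearson) at 95% and cover counting error only. Intervals with counts halved were added after the even counts were seen. Likeness used log2 CPM with a prior count of 2, for receptors with at least 1 CPM in 1 group and 3 genes each.

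The receptors and lists were chosen with earlier results of these data known. Named were all 10 receptors and, per list and comparison, up to 4 genes past the threshold with the smallest adjusted p, and the rest were counted. Genes overlapping a receptor were also named: Rb1 (Lpar6), Gm48303 (S1pr5), Gm32834 (S1pr3), and Mir3095 and Gm12577 (Lpar1). Genes outside that rule (Acer2, Sphk1, Sgpp2, Rhoa and Asah2, and the marker genes given by name) were singled out after their values were seen. Of 118 listed genes 117 were in the table, and the other is not analysed here. Some marker genes are not reported here by name. The fit was tested on simulated data. Replicates differed far beyond sampling noise, with a chi-square per gene of 48.4 or more in every pair. Alternatives included DESeq2 1.42.0, and figures used matplotlib 3.10.9.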

Additional observations from a re-analysis of the deposited data

How the results depend on the processing

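Replicate numbers were not shown to pair the libraries: deviations of same-numbered libraries from their group means correlated at -0.18 to 0.07. With the replicate number as a block, calls fell from 8 to 5 receptor genes and from 5093 to 2864 genes in iCEC against pNCC. In iCEC against pCEC they fell from 11 to 6 pathway genes and from 3327 to 1295 genes. In iCEC against pCEC, receptor calls were 5 by the DESeq2 Wald test (5009 genes in all), 1 with a filter of 1 CPM in 3 libraries and 4 with all 9 libraries in one fit, against 2. With pCEC as its polyA library alone, assumed to vary like iCEC, edgeR called 0 receptor genes, 0 pathway genes and 0 of 18806 genes there, with 3, 9 and 2529 at an unadjusted p under 0.05, and Lpar2 changed sign, with a log2 fold change of 0.18. This was the 1 reversal among the receptor genes. Of the 37 pathway calls in pCEC against pNCC 23 were at least 2-fold.

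When 1 library was left out, receptor calls ran from 4 to 9 (iCEC against pNCC), 9 to 10 (pCEC against pNCC) and 1 to 5 (iCEC against pCEC). Pathway calls ran from 10 to 27, 34 to 35 and 3 to 15, and all calls from 2322 to 7684, 9207 to 10687 and 1131 to 4974. The level per kilobase of the highest receptor ran from 47.1 to 63.1 in pNCC, 3.97 to 6.56 in iCEC and 24.8 to 28.5 in pCEC, and moved by less than 1 SD with longest transcript lengths or without TMM factors. Other scalings moved the median of all genes by at most 0.04 on the log2 scale. Depth limits S1pr4, S1pr5 and Lpar3, which had 0 to 2 counts in a group.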
